A study of Mus musculus with 5 samples.

Results

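The 10 genes of glucocorticoid and estrogen signaling described here were taken by name from a table of read counts for 24527 mouse genes: the glucocorticoid receptor Nr3c1, the mineralocorticoid receptor Nr3c2, the estrogen receptors Esr1 and Esr2, the progesterone receptor Pgr, the glucocorticoid-activating enzyme Hsd11b1, and the glucocorticoid-induced genes Tsc22d3, Zbtb16, Fkbp5 and Sgk1. The rule was a list of names with no threshold on a measured value, and all 10 were in the table. The counts came from bulk RNA-seq of prostate tumor tissue of TripleTg mice, with 3 samples from castrated and 2 from intact animals. Both groups carried the same alleles (hHGFtg-hMETtg-BCAT-PBCre in the labels): a human HGF transgene expressed in all tissues, a human MET transgene behind a stop cassette at the H11 locus, a Ctnnb1 allele whose floxed exon, once removed, leaves a stabilized β-catenin, and the Cre recombinase PB-Cre4 under the probasin promoter. By this design, Cre activity, and with it MET and stabilized β-catenin, is meant for prostate epithelial cells that have used this androgen-responsive promoter. Where recombination took place was not measured here. Mice of the castrated group lost the testes at 4 months, and tissue of both groups was analyzed at 8 months of age. The comparison asks how the tumors' transcripts differ after castration. The labels do not state that each sample came from its own animal, so that p-values measure only the spread between these samples.

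Steroid receptors are transcription factors that bind a hormone, leave a chaperone complex of heat shock protein and immunophilins, and bind DNA at short inverted repeats. The glucocorticoid, mineralocorticoid and progesterone receptors recognize nearly the same repeat, while estrogen receptors bind a different repeat. In prostate cancer the glucocorticoid receptor is known to switch on some androgen-regulated genes, also after androgen withdrawal. Within a cell, Hsd11b1 regenerates active corticosterone from its inert keto form, and Hsd11b2 performs the opposite step.

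Sgk1, a kinase that controls sodium channels and cell survival, had the only promoter among the genes searched with the full glucocorticoid response element in the bases searched. The search covered the 250 bases before each RefSeq transcription start (build GRCm38.p6, the same coordinates as mm10), and took in 8 of the 10 genes, with 16 start sites in all, while Nr3c1 and Zbtb16 were not searched. The glucocorticoid element was searched as AGAACA and TGTTCT with any 3 bases between them, its arm as TGTTCT alone, and the estrogen element as GGTCA and TGACC with any 3 bases between them, each on both strands, and every full glucocorticoid element also counts as a match to its arm. The first sequence is shown because it holds the full element, in capitals together with a further copy of the arm, and the second because Pgr, a gene that estrogen receptors are known to induce, was among the members whose groups did not overlap. The Sgk1 stretch is chr10:21993640-21993889 on the plus strand, within the Sgk1 gene before an internal start site and outside annotated exons. The Pgr stretch is chr9:8899583-8899832 on the plus strand, just outside the gene, and holds none of these letters.

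Sgk1: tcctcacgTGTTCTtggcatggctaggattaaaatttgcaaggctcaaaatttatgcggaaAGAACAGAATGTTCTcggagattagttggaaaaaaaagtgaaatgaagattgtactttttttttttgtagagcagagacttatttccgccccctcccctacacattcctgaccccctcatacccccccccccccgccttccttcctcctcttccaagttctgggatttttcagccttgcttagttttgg

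Pgr: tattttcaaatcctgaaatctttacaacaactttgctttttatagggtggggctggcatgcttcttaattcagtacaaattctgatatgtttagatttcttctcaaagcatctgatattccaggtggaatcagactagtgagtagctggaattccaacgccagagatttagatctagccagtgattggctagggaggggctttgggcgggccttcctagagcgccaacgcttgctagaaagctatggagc

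In the Sgk1 stretch the element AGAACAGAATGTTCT lies at chr10:21993701-21993715, and its first base is 189 bases before the start site. Among 32851 windows of the same length before all RefSeq starts, 3 held the full glucocorticoid element (0.00913%) and 5284 its arm (16.1%), while 21 held the estrogen element (0.0639%). The arm was also found before other start sites, at chr10:21881989-21881994 and chr10:21992210-21992215 for Sgk1 and at chrX:140600702-140600707 for Tsc22d3. No window of the 8 genes held the estrogen element. These matches describe letters in a short window and say nothing of whether a receptor was bound in these tumors.

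Before the values of these genes, 3 libraries have to be described, because they stood apart from the others of their group. Values are CPM (reads of a gene scaled to the TMM-adjusted size of its library, TMM being a normalization that removes differences in library composition), unless stated, and are given in replicate order, castrated 1, 2 and 3 and then intact 1 and 2. The castrated libraries held 28015507, 18951782 and 20492061 counts, and the intact ones 21560355 and 22853501. The 12 hepatocyte markers, a list added after values had been seen, summed to 25393 in castrated replicate 3 (2.54% of its counts), against 63.2 and 4.61 in the other castrated samples, and 14.9 and 5.39 in the intact samples. Albumin (Alb), the most abundant of them, was at 13842 in castrated replicate 3 and at 48.6 or less in each other sample. Transcripts of hepatocyte markers were thus present under a prostate label in this library, while 7 of the 12 markers were at 0 in castrated replicate 2 and 4 in intact replicate 2.

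The 8 prostate secretory markers separated the intact samples from each other. They summed to 2295 in intact replicate 2, but to 8.65 in intact replicate 1 and to 28.2, 27.4 and 32.1 in castrated samples. Tgm4, a secreted transglutaminase of the mouse prostate and the most abundant of them, was at 1347 in intact replicate 2 and at 0.419 or less elsewhere. Probasin (Pbsn, named after its values were seen), whose promoter drives the Cre, was at 5.21 in intact replicate 2 and at 0 in intact replicate 1, and at 0.454, 0 and 0.244 in castrated samples. In their sum, intact replicate 1 was thus below every castrated sample, while all 5 samples held epithelial transcripts, with summed epithelial markers between 4201 and 6727. The most abundant of these, keratin 8 (Krt8), was at 875, 777 and 1144 in castrated and at 1155 and 661 in intact samples. The labels give every sample as prostate cancer from prostate, without the lobe taken, and both intact samples are used as labelled. Whether they differed in the tissue sampled was not tested, and every comparison of castrated with intact samples rests on both.

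**Figure D1:**
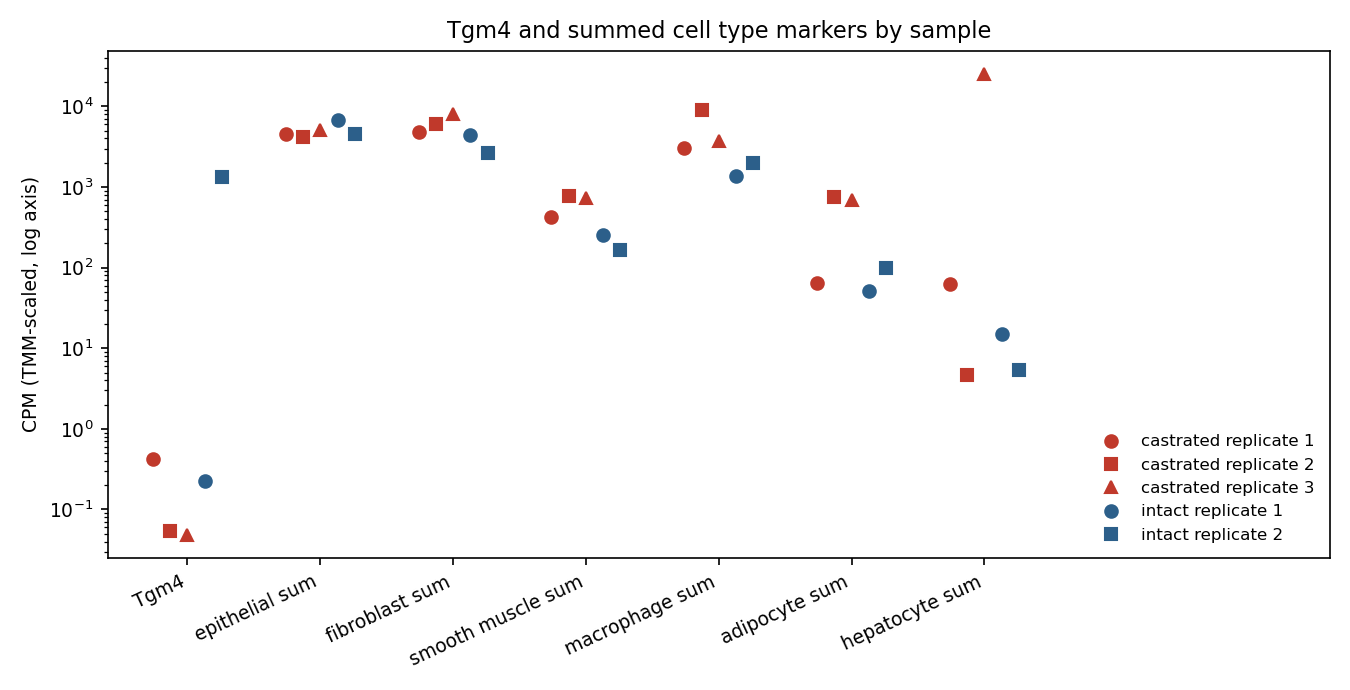
CPM on a log axis (TMM-scaled) of Tgm4 and of the summed markers of 6 cell types, with 1 point per sample (red, castrated; blue, intact; the marker shape gives the replicate). Intact replicate 2 alone held high Tgm4, castrated replicate 3 alone held hepatocyte transcripts at 25393, and the smooth muscle sum was 431 or more in castrated and 254 or less in intact samples.

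Across these 5 samples, Pgr and Hsd11b1 were the members whose castrated and intact values did not overlap, both higher after castration. The receptors Nr3c1, Nr3c2 and Esr1 and the 4 glucocorticoid-induced genes overlapped between groups. None of the 9 members tested passed the threshold of edgeR's quasi-likelihood test (Benjamini-Hochberg adjusted p under 0.05 over all 14612 genes tested, with an absolute log2 fold change above 1). No gene of the 14612 passed it either (0%), and the smallest adjusted p was 0.289. At the same thresholds DESeq2 called 989 genes and edgeR's likelihood ratio test 369, and none of the 9 members was among them. At an unadjusted p under 0.05 the test gave 2 members, both higher, while 1277 genes (8.74%) were higher and 918 (6.28%) lower at that level. In bulk tissue, fewer cells of a type and less RNA per cell cannot be told apart.

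**Figure D2:**
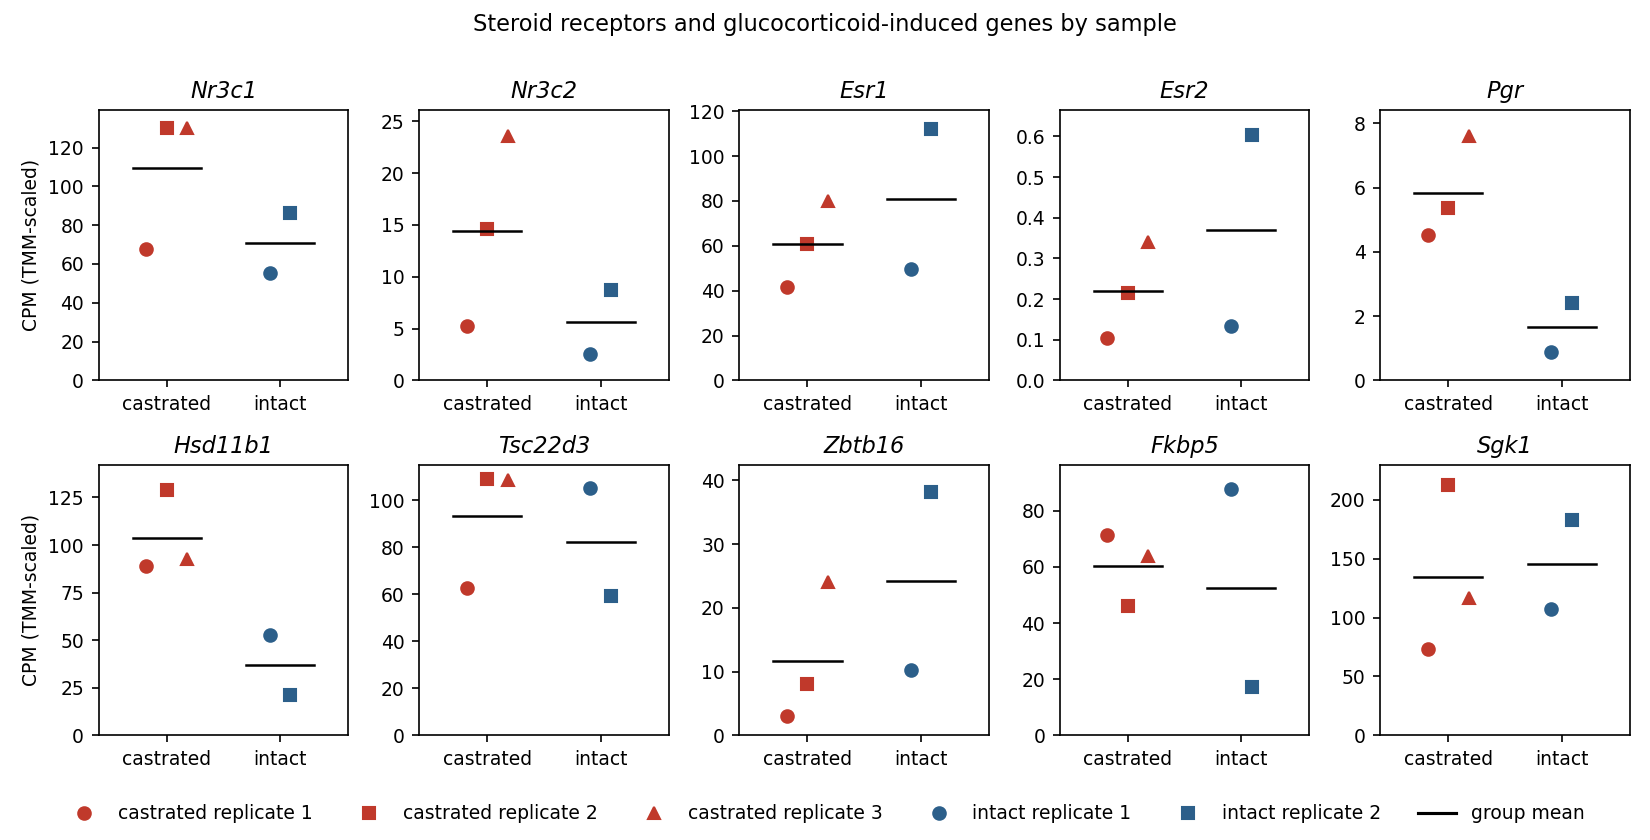
CPM (TMM-scaled, linear axes from 0) of the 10 genes, with 1 point per sample, a separate scale for each gene and a black bar at each group mean. The castrated points lie above both intact points for Pgr and Hsd11b1, while for the other 8 genes the groups overlap.

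Among the receptors, Nr3c1, which binds corticosterone and is expressed in nearly every cell type, had the highest mean level per gene length of the members' receptors. It lies on chromosome 18. Its CPM was 67.9, 130 and 130 in castrated and 55.2 and 86.4 in intact samples. Castrated replicates 2 and 3 were above both intact samples, and castrated replicate 1 lay between them. The means were 109 ± 35.9 (SD, n = 3) and 70.8 ± 22.1 (SD, n = 2). The log2 fold change of castrated against intact was 0.63 (SE 0.38, 95% interval -0.33 to 1.59), with an adjusted p of 0.475 in edgeR's test, so that the difference did not pass the test. Leaving out each sample in turn gave values from 0.36, without intact replicate 1, to 0.94, without intact replicate 2. In these refits edgeR gave unadjusted p-values between 0.106 and 0.463, except without castrated replicate 1, where p was 0.0355 and the log2 fold change 0.88.

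Nr3c2 (chr8:76902330-77245012), the aldosterone receptor, which also binds corticosterone, was far less abundant. Its CPM was 5.23, 14.6 and 23.5 in castrated and 2.51 and 8.69 in intact samples. Castrated replicate 1 again lay between the intact samples, with castrated replicates 2 and 3 above both. Its log2 fold change was 1.37 (SE 0.83, 95% interval -0.73 to 3.46, adjusted p = 0.477). It was 0.83 without castrated replicate 3, 0.75 without intact replicate 1 and 2.48 without intact replicate 2. Of the exon bases of Nr3c2, 247 are shared with Gm10649, a non-coding gene on the opposite strand, and since the strand setting of the counting is not given in the sources used here, reads there could belong to either.

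Esr1 (chr10:4611989-5005633), the estrogen receptor α found mainly in stroma in the normal prostate, was at 41.5, 60.8 and 80.1 CPM in castrated and at 49.5 and 112 in intact samples. Intact replicate 2 was the highest of all, castrated replicate 1 the lowest, and intact replicate 1 lay among the castrated samples. The log2 fold change was -0.41 (SE 0.44, 95% interval -1.52 to 0.70, adjusted p = 0.692), and it turned to 0.25 without intact replicate 2. Esr2 (chr12:76120419-76177259), the estrogen receptor β of prostate epithelium, was close to the limit of detection. It had 3, 4 and 7 reads in castrated and 3 and 13 reads in intact samples, fell under the minimum of 1 CPM in at least 2 samples and was not tested.

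Pgr (chr9:8899833-8968611), the progesterone receptor, had the largest positive log2 fold change of the members. Its reads numbered 130, 100 and 156 in castrated and 20 and 52 in intact samples. In CPM these were 4.54, 5.36 and 7.60 against 0.90 and 2.42, so that the lowest castrated sample exceeded the highest intact sample. The means were 5.83 ± 1.59 (SD, n = 3) and 1.66 ± 1.08 (SD, n = 2), and the log2 fold change was 1.81 (SE 0.59, 95% interval 0.31 to 3.32). The unadjusted p was 0.0265 and the adjusted p 0.302 in edgeR's test. The log2 fold change was 1.58 without castrated replicate 3 (unadjusted p = 0.0789), 1.29 without intact replicate 1 (0.0675) and 2.65 without intact replicate 2 (0.00907).

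Per gene length, in TPM (reads per kilobase of gene, scaled to the same total in each sample), the receptors kept nearly the same order in every sample. Nr3c1 was at 21.7, 41.8 and 41.0 TPM in castrated and at 18.5 and 21.7 in intact samples. Esr1 was at 11.1, 16.4 and 21.2 against 14.0 and 23.7. Nr3c1 was thus the highest receptor in each sample but intact replicate 2, where Esr1 exceeded it. In the intact samples the mean TPM of Nr3c1 (20.1 ± 2.29, SD) and of Esr1 (18.8 ± 6.90, SD) differed by less than the spread between samples. Nr3c2 ranged from 1.10 to 9.69 TPM, Pgr from 0.322 to 2.56 and Esr2 from 0.0733 to 0.334, and these last 3 genes held the same ranks in all 5 samples, below Nr3c1 and Esr1.

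**Figure D3:**
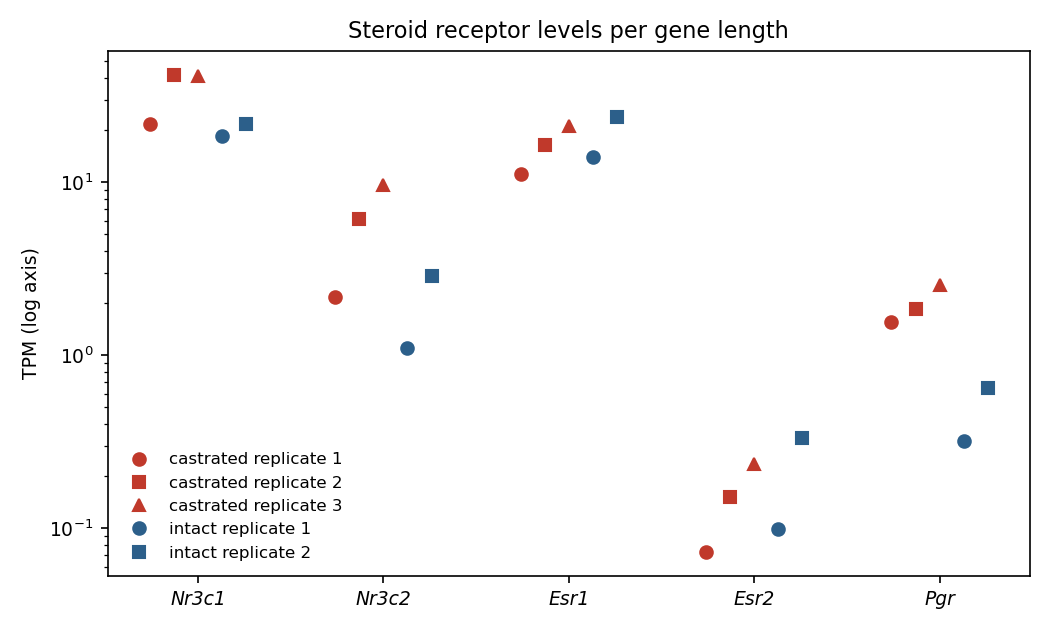
TPM on a log axis of 5 steroid receptors, with 1 point per sample (red, castrated; blue, intact; the marker shape gives the replicate). Nr3c1 ranged from 18.5 to 41.8 and Esr1 from 11.1 to 23.7, while Esr2 was at 0.334 or less in every sample.

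Hsd11b1 (chr1:193221641-193264045), the enzyme that regenerates corticosterone inside cells and is best known from liver and fat, had the highest mean level per gene length of the 10 members. Its reads numbered 2548, 2406 and 1901 in castrated and 1175 and 458 in intact samples. In CPM these were 88.9, 129 and 92.6 against 52.7 and 21.3, and every castrated sample was above both intact samples. The means were 104 ± 22.2 (SD, n = 3) and 37.0 ± 22.2 (SD, n = 2), and the log2 fold change was 1.49 (SE 0.44, 95% interval 0.36 to 2.61). The unadjusted p was 0.0188 and the adjusted p 0.297 in edgeR's test. In edgeR's test, the log2 fold change was 1.57 without castrated replicate 3 (unadjusted p = 0.0347) and 1.30 without castrated replicate 2 (unadjusted p = 0.0592). It was 2.30 without intact replicate 1 and 0.93 without intact replicate 2.

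By mean TPM over all samples, Hsd11b1 (125) was followed by Sgk1 (74.9), Tsc22d3 (63.3), Fkbp5 (34.8), Nr3c1 (29.0), Esr1 (17.3), Zbtb16 (4.58), Nr3c2 (4.39), Pgr (1.39) and Esr2 (0.179). In the castrated samples Hsd11b1 was at 169 ± 37.6 TPM (SD) and Sgk1 at 76.2 ± 41.1. In the intact samples Hsd11b1, at 58.9 ± 44.5, and Sgk1, at 73.1 ± 12.5, differed by less than the SD of Hsd11b1. The opposing enzyme Hsd11b2 (named after its values were seen) was low, with 0.28, 0.80 and 3.17 CPM in castrated and 0.09 and 0.05 in intact samples. Every castrated value of Hsd11b2 was above both intact values, and the gene was not tested. H6pd, which supplies Hsd11b1 with its cofactor (likewise named after its values were seen), was at 108, 132 and 213 against 76.3 and 130, and overlapped between groups. The plasma carrier of corticosterone, Serpina6, a liver product (chosen in the same way), was at 73.4 in castrated replicate 3 and at 0.0349 or less elsewhere.

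The 4 glucocorticoid-induced genes showed no common direction. Tsc22d3 (chrX:140539529-140600522), which encodes the anti-inflammatory leucine zipper protein GILZ, was at 62.6, 109 and 109 CPM in castrated and at 105 and 59.1 in intact samples. The groups covered nearly the same range, with castrated replicate 1 near intact replicate 2. Castrated against intact, the log2 fold change was 0.19 (SE 0.37, 95% interval -0.75 to 1.12, adjusted p = 0.843), and it was -0.21 without intact replicate 2.

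Fkbp5 (chr17:28398753-28486149), an immunophilin that lowers the hormone affinity of the glucocorticoid receptor and is also induced by androgens, was at 71.5, 46.0 and 63.8 CPM in castrated samples. In intact samples it was at 87.8 and 17.2, so that the intact samples held both the highest and the lowest value. The log2 fold change was 0.20 (SE 0.66, 95% interval -1.48 to 1.88, adjusted p = 0.909). Which intact sample was kept decided its sign and size: it was 1.83 without intact replicate 1 (unadjusted p = 0.00581) and -0.58 without intact replicate 2.

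Zbtb16 (chr9:48651797-48836225), the zinc finger repressor PLZF, was at 3.0, 8.10 and 24.0 CPM in castrated and at 10.3 and 38.2 in intact samples. Of the members tested it varied most within the castrated group, with its highest value 8.0 times the lowest, and intact replicate 2 was at 3.70 times intact replicate 1. The log2 fold change was -1.05 (SE 0.96, 95% interval -3.47 to 1.37, adjusted p = 0.639), and it was -2.12 without castrated replicate 3 and 0.14 without intact replicate 2. Sgk1 (chr10:21882184-21999902) was at 73.6, 213 and 116 CPM in castrated and at 108 and 183 in intact samples. Both intact values lay inside the castrated range, and the log2 fold change was -0.11 (SE 0.50, 95% interval -1.37 to 1.14, adjusted p = 0.933). It was 0.28 without intact replicate 2.

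**Figure D4:**
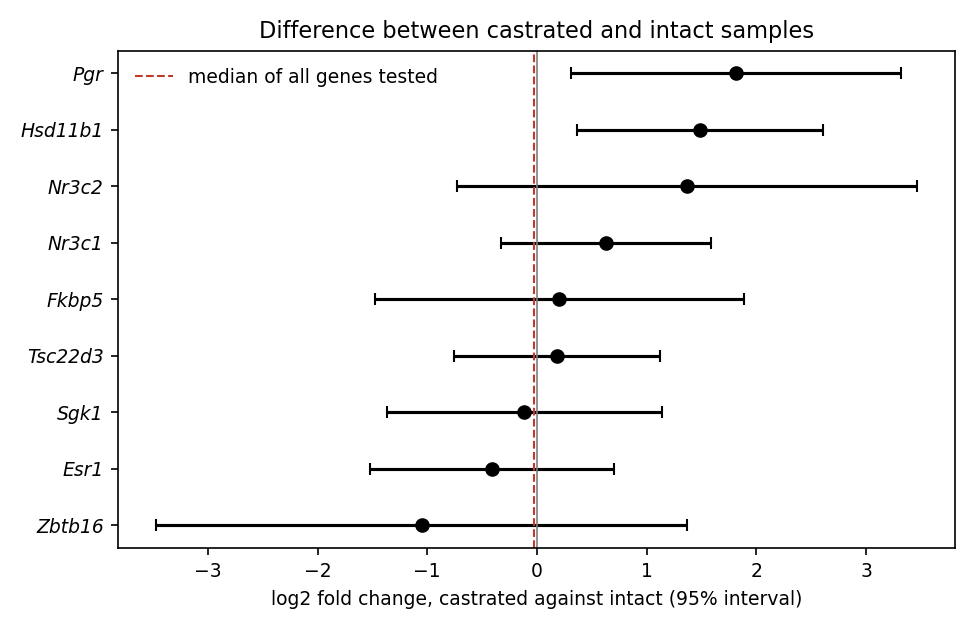
Log2 fold change of castrated against intact samples (points) with 95% intervals (bars) for the 9 members tested, beside the median of all 14612 genes tested (dashed line, -0.03). The intervals of Pgr and Hsd11b1 lie above 0, and those of the other 7 genes include 0.

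Counted together, 6 of the 9 members tested were higher and 3 lower in the castrated samples. Their median log2 fold change was 0.20, while over all genes tested 47.9% were higher and the median was -0.03. The groups did not overlap for 2 of the 9, both higher (22.2%), beside 17.0% of all genes that were higher and 16.1% that were lower without overlap. The members' share was thus near the background. The members differed more between the intact samples than most genes did, with a median absolute log2 ratio of 1.31 against 0.58 over all genes tested. By this ratio intact replicate 2 was higher than intact replicate 1 for Nr3c1, Nr3c2, Esr1, Pgr, Zbtb16 and Sgk1 (1.57 to 3.70 times) and lower for Hsd11b1, Tsc22d3 and Fkbp5 (0.196 to 0.562 times).

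Other genes that glucocorticoids are known to induce were mostly a little higher in the castrated samples without passing the test. Of 26 listed, 25 were tested, 19 were higher and 6 lower, and the median log2 fold change was 0.35. An unadjusted p under 0.05 was reached by 2 of them, both higher, and by 0 that were lower, beside 8.74% higher and 6.28% lower over all genes tested, the background also for the lists that follow. The groups did not overlap for 4 of the 25, all higher (16%), near the 17.0% of all genes tested that were higher without overlap. Cebpb, a transcription factor of inflammation and fat cell formation, was at 29.5, 49.8 and 40.8 CPM in castrated against 20.6 and 21.4 in intact samples, with a log2 fold change of 0.93 (SE 0.29, adjusted p = 0.301). All castrated values of Cebpb were above both intact values. Sult1a1, a sulfotransferase abundant in liver, was at 16.3, 21.6 and 83.6 against 10.3 and 3.67, with a log2 fold change of 2.54 (SE 0.94, adjusted p = 0.321) that was 1.45 without castrated replicate 3.

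The most abundant genes of that list were Anxa1, an anti-inflammatory lipid-binding protein, and Glul, glutamine synthetase. Anxa1 was at 899, 1370 and 1309 CPM in castrated and at 1312 and 296 in intact samples (log2 fold change 0.57, SE 0.67, adjusted p = 0.717). Glul was at 3385, 574 and 2492 against 307 and 3221 (log2 fold change 0.29, SE 1.16, adjusted p = 0.927). Both overlapped between groups. The tyrosine aminotransferase Tat, a classic glucocorticoid-induced gene of hepatocytes (named after its values were seen), was at 96.4 in castrated replicate 3 and at 0.314 or less elsewhere, and was not tested. The part of the hepatocyte transcripts in the Sult1a1 and Tat values was not tested.

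Chaperones and cochaperones of steroid receptors had log2 fold changes between -0.75 and 0.30. All 14 listed were tested, with 4 higher and 10 lower in castrated samples, and their median was -0.08, with 0 higher and 1 lower at an unadjusted p under 0.05. The most abundant, Hsp90ab1, which holds receptors in a hormone-binding state, had a log2 fold change of -0.25 (SE 0.45, adjusted p = 0.825), and that of Hspa8, a heat shock cognate protein, was -0.32 (SE 0.36, adjusted p = 0.709). Ppid, the immunophilin cyclophilin 40, was at 52.2, 48.6 and 54.4 CPM in castrated against 75.7 and 98.3 in intact samples, so that all castrated values were below both intact ones. Its log2 fold change was -0.75 (SE 0.20, unadjusted p = 0.0109, adjusted p = 0.290). The median absolute log2 ratio between the intact samples was 0.18 for this list, beside 1.31 for the members.

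Of 16 coregulators of steroid receptors, 14 were tested, with 3 higher and 11 lower in castrated samples, and their median log2 fold change was -0.16. At an unadjusted p under 0.05 were 2, both lower. Ppargc1a, the coactivator of mitochondrial genes, was at 17.7, 12.7 and 11.3 CPM in castrated against 45.4 and 26.3 in intact samples (log2 fold change -1.37, SE 0.35, unadjusted p = 0.0102, adjusted p = 0.290, and -0.90 without intact replicate 1). The Mediator subunit Med1 was at 75.5, 82.7 and 71.5 against 98.4 and 119 (log2 fold change -0.51, SE 0.18, adjusted p = 0.316). For both genes the castrated samples lay below both intact samples. The most abundant of the list, the deacetylase Hdac3 and the remodeling ATPase Smarca4, had log2 fold changes of -0.42 (SE 0.25, adjusted p = 0.467) and -0.28 (SE 0.25, adjusted p = 0.628).

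Of 16 genes of glucocorticoid metabolism and the mineralocorticoid pathway, 11 were tested, with 7 higher and 4 lower in castrated samples, a median of 0.43 on the log2 scale and 0 at an unadjusted p under 0.05. The most abundant was Atp1b1, a subunit of the sodium pump. It was at 297, 402 and 498 CPM in castrated against 334 and 1197 in intact samples, and its log2 fold change of -0.94 (SE 0.57, adjusted p = 0.475) was 0.21 without intact replicate 2.

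Of 16 genes that estrogen is known to induce in some tissue, 15 were tested. Of these 10 were higher and 5 lower, the median log2 fold change was 0.58, and 3 reached an unadjusted p under 0.05, all higher. Cxcl12, a stromal chemokine, was at 87.1, 336 and 289 CPM in castrated against 13.1 and 15.9 in intact samples, with a log2 fold change of 4.03 (SE 0.68, unadjusted p = 0.00163, adjusted p = 0.289). Every castrated value of Cxcl12 was above both intact values. The lysosomal protease Ctsd was at 1385, 3535 and 1554 against 833 and 732 (log2 fold change 1.46, SE 0.58, adjusted p = 0.332), and its log2 fold change was 0.92 without castrated replicate 2.

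Ret, a receptor tyrosine kinase, was at 1281 CPM in castrated replicate 1, but at 23.7 and 41.1 in castrated replicates 2 and 3 and at 6.77 and 11.4 in intact samples. Its log2 fold change of 5.62 (SE 2.19, adjusted p = 0.330) was 1.83 without castrated replicate 1. Igfbp4, which binds insulin-like growth factors and was second to Ctsd in level per gene length, had a log2 fold change of 0.50 (SE 0.56, adjusted p = 0.704). Of the 3 orphan receptors related to the estrogen receptors, Esrra had a log2 fold change of -0.36 (SE 0.25, adjusted p = 0.526) and Esrrg one of -1.44 (SE 1.72, adjusted p = 0.721), with a median of -0.90 over these 2 genes, and Esrrb was not tested.

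Androgen-regulated genes, the setting against which the members are read, went in both directions. Of 15 genes listed, 10 were tested, with 7 higher and 3 lower in castrated samples, and their median log2 fold change was 0.42, with 1 higher and 2 lower at an unadjusted p under 0.05. Pbsn, Msmb, Tgm4, Spink1 and Klk1b24 fell under the filter and were not tested. These counts and the median thus leave out Tgm4 and Pbsn, which were both highest in intact replicate 2. Hpgd, which inactivates prostaglandins, was at 10.6, 33.8 and 58.6 CPM in castrated against 2.15 and 9.25 in intact samples (log2 fold change 2.59, SE 0.97, adjusted p = 0.322, and 3.95 without intact replicate 2). Tmprss2, a membrane protease, was at 166, 206 and 171 against 232 and 305 (log2 fold change -0.57, SE 0.22, adjusted p = 0.329), and the stress-response gene Ndrg1 had a log2 fold change of 0.36 (SE 0.33, adjusted p = 0.643), which was 0.04 without castrated replicate 3 and 0.60 without intact replicate 1.

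**Figure D5:**
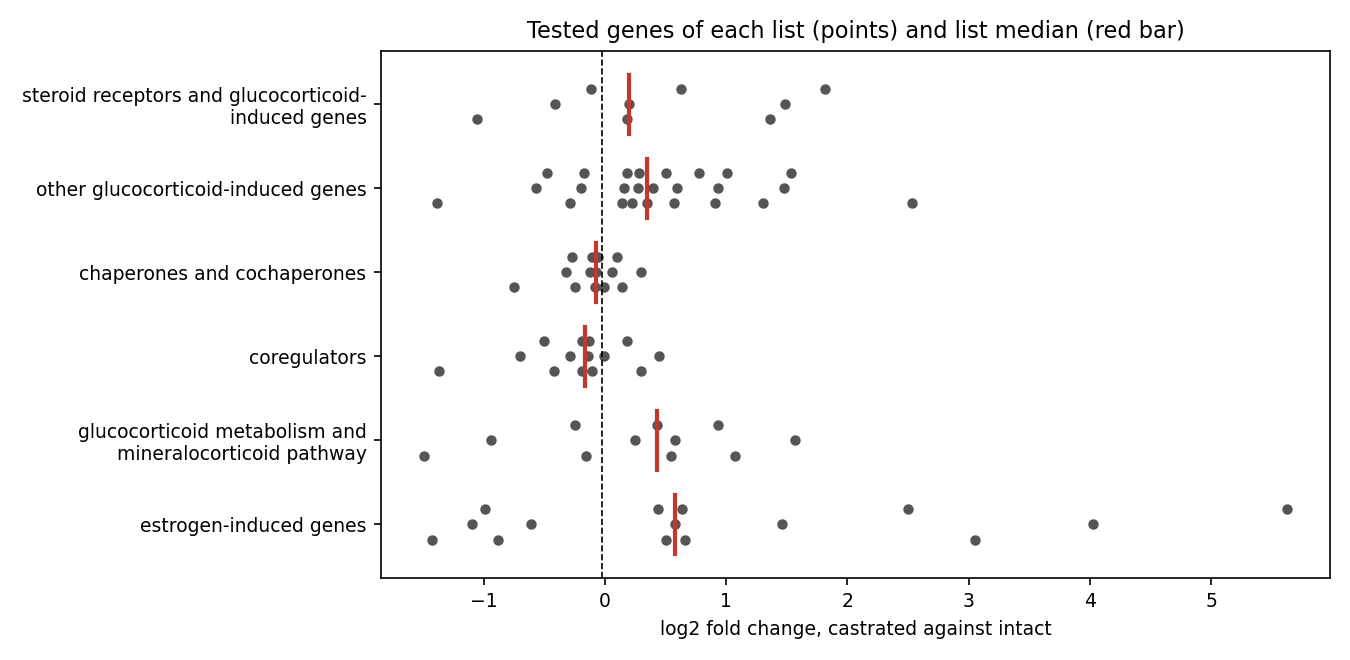
Log2 fold change of castrated against intact samples for every tested gene (points) of 6 lists, with the list median (red bar) and the median of all genes tested (dashed line, -0.03). The list medians lie between -0.16 for the coregulators and 0.58 for the estrogen-induced genes, and the chaperones spread least.

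Markers of other cell types differed between the samples along with Hsd11b1 and Pgr. The 12 macrophage markers were all higher in each castrated than in each intact sample, beside 17.0% of all genes tested that were higher without overlap. They summed to 3084, 9052 and 3702 CPM in castrated against 1359 and 2000 in intact samples. Lyz2, the most abundant, was at 1596, 4736 and 1664 against 558 and 1072. For the 10 smooth muscle markers the sums were 431, 775 and 733 against 254 and 165, with Acta2 at 162, 303 and 221 against 77.1 and 57.5. Of these markers, 9 were higher without overlap (90%), beside 17.0% of all genes tested. The 10 fibroblast markers summed to 4844, 5986 and 8068 against 4363 and 2657, and the proteoglycan Dcn, the most abundant in mean, was at 998, 2662 and 3825 against 487 and 495. Of the 10, 8 had a positive log2 fold change and 2 a negative one, and 5 were higher without overlap (50%). The collagens did not follow Dcn, with log2 fold changes of -0.36 for Col1a1, 0.01 for Col1a2 and 0.09 for Col3a1. B cell and plasma cell markers summed to 329, 1583 and 1300 against 57.4 and 22.5, and the antibody joining chain Jchain was at 319, 1517 and 1225 against 56.2 and 18.7.

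Adipocyte markers were highest in castrated replicates 2 and 3. Their 12 genes summed to 64.0, 743 and 696 CPM in castrated against 51.8 and 99.0 in intact samples, where 5 of the 12 were at 0 in each library. Fabp4, a fatty acid carrier and the most abundant of them, was at 37.0, 287 and 193 against 26.0 and 52.0. Adipoq, the fat cell hormone (named after its values were seen), was at 0.523, 68.8 and 68.3 against 0 and 0.093. Of the 12 adipocyte markers, 8 (66.7%) were higher in every castrated sample, castrated replicate 1 included, than in both intact samples. Over all genes tested, 17.0% were higher without overlap. In castrated replicate 1, where the summed level, Fabp4, Lipe and Pparg were between those of the intact samples, Hsd11b1 was at 88.9 and Pgr at 4.54. Within the castrated group, 9 of the 10 members, all but Fkbp5, were lowest in castrated replicate 1. The share of all genes that were lowest in that sample was not counted, so this number cannot be read as particular to the members. Castrated replicate 1 also had the lowest fibroblast, smooth muscle, skeletal muscle, adipocyte, macrophage, T cell and B cell and plasma cell sums of its group. Its endothelial, neutrophil and red blood cell sums were the highest of that group. The part of these cell types in the values of the members was not tested.

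The sums of the T cell, endothelial, neutrophil, red blood cell and seminal vesicle markers overlapped between the groups. T cell markers (most abundant Cd4) summed to 22.2, 63.6 and 70.3 CPM in castrated against 34.8 and 44.4 in intact samples, endothelial markers (Cdh5) to 683, 320 and 391 against 500 and 192, and neutrophil markers (S100a9) to 193, 168 and 104 against 104 and 126. Red blood cell markers (Hbb-bs) were at 2055 in castrated replicate 1 and between 6.59 and 196 elsewhere. Skeletal muscle markers were low throughout, summing to 2.93 or more in castrated and 2.7 or less in intact samples, without overlap. Of the 8 genes, Mylpf alone was tested, the most abundant of them. Mylpf overlapped between groups, with a log2 fold change of -0.31 (SE 0.47, adjusted p = 0.784). The small gap between the sums thus rested on untested markers. Seminal vesicle markers (Svs4) summed to 7.62 in intact replicate 2 and to 0.174 or less elsewhere.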

How the data were processed

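Prostate tumors of TripleTg mice, 3 samples castrated and 2 intact, were measured by bulk RNA-seq and grouped by the castration status in the labels. Per the labels, total RNA was depleted of ribosomal RNA, and the submitters' processing notes name Trimmomatic 0.39, STAR 2.7.9, HTSeq 2.0.2 and build mm10. The authors deposited whole read counts per gene without normalization, and a gene length in kilobases. Sums of these counts were 18951782 to 28015507 per sample, and the common dispersion was 0.238. No samples of a group were the same library, with a chi-square per gene of 134 or more between any pair.

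The 14612 genes above 1 CPM in 2 or more samples entered the quasi-likelihood F-test of edgeR 4.0.16 (R 4.3.3) with TMM factors of 0.944 to 1.04, and p-values were adjusted by Benjamini-Hochberg over all of them. Filter, test and thresholds followed the study's methods, except that counts replaced TPM as input and that the quasi-likelihood fit was the current one of this edgeR version, not the older one. Intervals are from the test's moderated t distribution. TPM was computed from counts and the deposited gene length. Members and gene lists were chosen with earlier results of these data known, and lists were described by counts and medians. The named genes are the 10 members, the 2 genes of each pathway list with the highest mean TPM, up to 4 tested genes of each with an unadjusted p under 0.05, and the most abundant gene of each marker list. Serpina6 and those so marked in the text were chosen after their values were seen. Some genes of the rule and lists are not reported here, though they remain in the counts, sums and medians of the lists. Alternatives were DESeq2 1.42.0, limma 3.58.1 (voom), the likelihood ratio test, other scalings and filters, TPM as input, a replicate block, leaving out each sample and, chosen after seeing the data, the older quasi-likelihood fit. The code was tested on simulated data.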

Additional observations from a re-analysis of the deposited data

How the results depend on the processing

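No member passed the threshold under any alternative run, and Hsd11b1 and Pgr remained higher in castrated samples in all of them. Over all genes, 0 passed in edgeR's quasi-likelihood test, against 989 with DESeq2 (703 higher) and 369 (276 higher) with the likelihood ratio test, while 2195 genes were at an unadjusted p under 0.05 in the quasi-likelihood test, against 3029 with DESeq2 and 1654 with limma voom. DESeq2 gave adjusted p-values of 0.0503 for Pgr and 0.0512 for Hsd11b1, and over all alternatives these ranged up to 0.710 and 0.689. Leaving out a sample gave 0 to 1 genes past the threshold (1 without intact replicate 1), 1011 to 3292 genes at an unadjusted p under 0.05 (1011 without castrated replicate 3, 1094 without castrated replicate 2, 3292 without intact replicate 1) and 0 to 3 members at that level (0 without castrated replicate 2, 1 without castrated replicate 3, 3 without castrated replicate 1). The cause was not tested. Replicate numbers 1 and 2 occur in both groups, but with 2 pairs and correlations of deviations of 0.149 and -0.05 the samples share only a number. With the replicate block, 1046 genes and 2 members (Hsd11b1 and Zbtb16) were at an unadjusted p under 0.05. For the 30 members and pathway genes run, under the 10 alternatives that kept every sample, 295 values kept direction and side of the threshold, and DESeq2 gave no p for Ret. Esrrg reversed to 0.59 with limma voom, and 3 values passed the threshold: Ppargc1a with DESeq2, and Cxcl12 with DESeq2 and the likelihood ratio test. Leaving out a sample moved the log2 fold change from -0.86 to 0.25 for Esr1, -0.21 to 0.68 for Tsc22d3, -2.12 to 0.14 for Zbtb16, -0.58 to 1.83 for Fkbp5, -0.60 to 0.28 for Sgk1, -0.18 to 2.03 for Anxa1, -0.56 to 2.77 for Glul, -1.57 to 0.21 for Atp1b1, -0.17 to 1.67 for Igfbp4 and -2.75 to 5.39 for Esrrg, and changed the sign of none of the others among these 30 genes, of which Ndrg1 ranged from 0.04 to 0.60, Hsp90ab1 from -0.38 to -0.15, Hspa8 from -0.49 to -0.15, Hdac3 from -0.62 to -0.26 and Smarca4 from -0.50 to -0.17. Esr2, the marker genes and the genes chosen after their values were seen were not run. Read depth limits Esr2, with at most 13 reads in a sample, and bears on Pgr, with 20 and 52 reads in the intact samples.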
